A study of Homo sapiens with 18 samples.

Results

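The genes described here code for the subunits, activators, inhibitor and assembly chaperones of the proteasome. They were taken as every row of the count table whose symbol began with PSMA to PSMG followed only by a number and that had at least 10 raw counts in at least 3 libraries. Of 43735 rows, 48 had such a symbol and 41 reached the count, and all 41 passed the filter on low counts that left 14281 genes for testing. The libraries were RNA sequencing libraries of MM1S, a human multiple myeloma cell line that responds to glucocorticoids, and of MM1R, a line of the same origin that is resistant to them. Each line gave 3 untreated libraries, 3 libraries after treatment with RSL3 (5 µM, 3 h), and 3 libraries in which ferrostatin-1 (Fer-1, 2 µM, 2 h) preceded that treatment. RSL3 inactivates the lipid peroxide reductase GPX4 and thereby induces ferroptosis, while Fer-1 is a radical-trapping inhibitor of this form of cell death. The libraries of a line differed by cell passage (4, 6 and 7 in MM1R, and 16, 22 and 23 in MM1S), and each passage gave 1 library of each treatment. Each line is a single culture lineage, so the passages stand for repeats within a line and not for patients.

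The proteasome degrades proteins tagged with ubiquitin. Its 20S core is a barrel of alpha and beta rings whose inner beta rings carry the cutting sites, and its 19S cap holds an ATPase base that unfolds substrates and a group of non-ATPase subunits that bind and remove ubiquitin. Myeloma cells secrete large amounts of immunoglobulin and depend strongly on this machine, and inhibitors of its beta subunit PSMB5 are a standard therapy of the disease.

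Total counts were 17635438 to 19368343 per library, and the members took 0.582% to 0.775% of them. Levels are given as CPM, the counts scaled to a common library size, here after TMM scaling. All 8 plasma cell markers examined, such as SDC1, the surface marker of plasma cells, exceeded 10 CPM in every library, whereas the 3 mature B-cell markers together stayed at or below 0.506 CPM and the 3 myeloid markers at or below 0.601 CPM. The 3 T-cell markers summed to 3.26 to 11.7 CPM and the 3 epithelial or stromal markers to 0.94 to 21.0 CPM. One library stood apart: in replicate 2 of the MM1R group with Fer-1 plus RSL3, 13 genes that were at least 8-fold higher in MM1S than in MM1R stood at a median of 49.3% of their MM1S level, and NR3C1, the glucocorticoid receptor gene, at 50.2 CPM against 16.9 and 15.3 CPM in the other libraries of its group. The calls and medians of the comparisons that use it are therefore also given without it. Replicate 1 of MM1S cells given RSL3 (passage 16) had the strongest heat shock response, with HSPA6 at 4320 CPM against 64.5 and 82.8 CPM in the other 2 libraries of its group, and the lowest TMM factor, 0.864.

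Of the 7 symbols that did not reach the count, PSMA8, a core subunit of germ cells, had at most 2 counts, and PSMB11, the catalytic subunit of the thymus, was listed at 0. PSMB8 and PSMB9, the catalytic subunits that replace PSMB5 and PSMB6 in the immunoproteasome, PSME1, part of an activator ring, PSMB3, a structural beta subunit, and PSMC4, a base ATPase, had at most 1 count in any library. These 5 symbols also had extra rows in the table with a number added to the symbol, 7 each for PSMB8 and PSMB9, and no such row held more than 1 count. Among protein-coding symbols with such an extra row, 831 of 1227 (67.7%) had no more than 3 counts in every library, against 4498 of 17641 (25.5%) of those without one. The 5 genes are therefore reported only as listed at or near 0, and no statement about their expression is made. PSME2, the partner of PSME1, also had 1 extra row and only 5 to 21 counts per library, so its ratios are imprecise.

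Levels between genes were compared as CPM per kb of the main annotated transcript. In untreated MM1R cells, the core subunit genes PSMB4 (472 ± 87.5 CPM per kb, SD, n = 3), PSMA7 (247 ± 46.2) and PSMB6 (238 ± 62.5) had the highest levels, and in untreated MM1S cells PSMB4 (428 ± 11.3), PSMA1 (248 ± 10.7) and PSMA7 (221 ± 1.35). PSMB4, a structural beta subunit, led in both lines, and the genes behind it lay within each other's spread in MM1R. The class medians in untreated MM1R and MM1S cells were 116 and 119 CPM per kb for the 7 alpha subunits, 109 and 101 for the 6 constitutive beta subunits, 66.0 and 66.6 for the 5 base ATPases, 96.7 and 96.5 for the 11 non-ATPase subunits, 23 and 23.9 for the 4 activators and inhibitor, and 27.2 and 20.9 for the 7 assembly chaperones. The chaperones, which are not part of the finished particle, thus had lower medians than the core and cap subunits. PSMC1, a base ATPase, was far below the other ATPases with 7.72 ± 1.82 and 8.68 ± 1.05 CPM per kb. Part of this gap lies in the transcript length used, 4.39 kb for PSMC1 against 1.33 to 2.71 kb for the other ATPases. Without division by length PSMC1 measured 33.9 and 38.1 CPM, against 54.7 and 60.5 CPM for PSMC6, the next lowest ATPase. The annotation names 13 pseudogenes of PSMC1 and the gene overlaps NRDE2, so its level is uncertain.

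Over all 18 libraries, the median coefficient of variation of the members' CPM was 12.6%, and also 12.6% for the 40 members without PSME2, compared with 15.1% for the 7504 tested genes in the CPM range of those 40. It was smallest for PSMF1, the proteasome inhibitor PI31, with 7.55%, and largest for PSME2 with 34.5%, followed by the assembly chaperones PSMG4 with 23.1% and PSMG1 with 19.7%.

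The first comparison asked how the members responded to RSL3. In the model over both lines, 4 of the 41 members (9.76%) rose at an FDR under 0.05 and none fell, whereas 15.5% of all tested genes changed. The share of members called was below the background in this fit and above it when passage was a block, as given below. The 4 genes are PSMD12 and PSMD11, non-ATPase subunits of the 19S lid, PSMC6, an ATPase of the base, and PSMD10, known as gankyrin, a chaperone that assists base assembly and leaves before the proteasome is complete. The median log2 fold change of the members was 0.12, with 31 of 41 above 0, while that of all genes was 0.00. With total-count scaling, chosen after the data were seen, these medians were 0.05 and -0.07, with 26 members above 0, and only PSMD12 and PSMC6 were called (PSMD11 at FDR 0.0652 and PSMD10 at 0.159). In MM1R cells 0 members were called by edgeR against 3.36% of all genes. At an unadjusted p under 0.05 there were 2, PSMD12 and PSMC6, DESeq2 called 1, PSMD12, and edgeR called both when replicate 1 of MM1S with RSL3, which shares the estimate of the spread, was left out. In MM1S cells 1 member was called, PSMD12, against 3.67% of all genes, and 8 members had an unadjusted p under 0.05.

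PSMD12 (Rpn5), a scaffold subunit of the lid, had CPM values of 85.1, 95.4 and 105 in untreated MM1R cells, 110, 129 and 127 after RSL3, and 113, 125 and 137 after Fer-1 and RSL3. The MM1S values were 98.3, 107 and 115 CPM untreated, 157, 152 and 139 after RSL3, and 134, 137 and 146 after Fer-1 and RSL3. All treated libraries of a line lay above all untreated libraries of that line. The log2 fold change for RSL3 was 0.42 ± 0.08 (SE, FDR 0.00171) over both lines, a 1.34-fold rise. In MM1S cells it was 0.49 ± 0.11 (FDR 0.0214) and in MM1R cells 0.36 (FDR 0.0802). The call over both lines held when any 1 library was left out, with an FDR of at most 0.00738. The call in MM1S alone was lost without untreated replicate 1 (FDR 0.125), untreated replicate 2 (0.072) or RSL3 replicate 1 (0.0751).

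PSMC6 (Rpt4), which belongs to the ring of ATPases that pulls substrates into the core, showed the same arrangement. Its CPM values were 47.8, 55.3 and 60.9 in untreated MM1R cells against 67.3, 69.5 and 74.6 after RSL3. In MM1S cells they were 55.2, 64.8 and 61.6 against 88.1, 76.0 and 70.3. The groups did not overlap in either line, and the highest value came from the MM1S library with the strongest heat shock response. The log2 fold change over both lines was 0.37 ± 0.08 (FDR 0.00676) and stayed called when any 1 library was left out, with an FDR of at most 0.0243.

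PSMD11 (Rpn6), the lid subunit that holds the cap and core together, had the highest level of the 4 genes. It measured 240, 279 and 319 CPM in untreated MM1R cells and 278, 335 and 364 after RSL3. The MM1S values were 260, 284 and 299 against 354, 378 and 371. The MM1S groups were apart, and the MM1R groups overlapped although each passage rose. The log2 fold change over both lines was 0.30 ± 0.09 (FDR 0.0307), and leaving out 1 library at a time ended the call in 7 of 18 fits, with a largest FDR of 0.079. These 7 libraries were replicates 1 and 2 of untreated MM1R, replicates 2 and 3 of MM1R given RSL3, replicates 1 and 2 of untreated MM1S, and replicate 2 of MM1S given RSL3.

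PSMD10, the smallest of these changes, measured 50.3, 57.8 and 60.8 CPM in untreated MM1R cells and 64.6, 66.2 and 62.7 after RSL3. The values in MM1S were 56.9, 61.1 and 63.8 against 71.4, 75.6 and 71.7. The groups did not overlap in either line. The log2 fold change over both lines was 0.23 ± 0.07 (FDR 0.0295). This call was also lost in 7 of 18 fits with 1 library left out, with a largest FDR of 0.0798, namely without replicate 1 or 2 of untreated MM1R, of MM1R given RSL3 or of untreated MM1S, or without replicate 2 of MM1S given RSL3. The plot of these 4 genes shows every library.

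**Figure D1:**
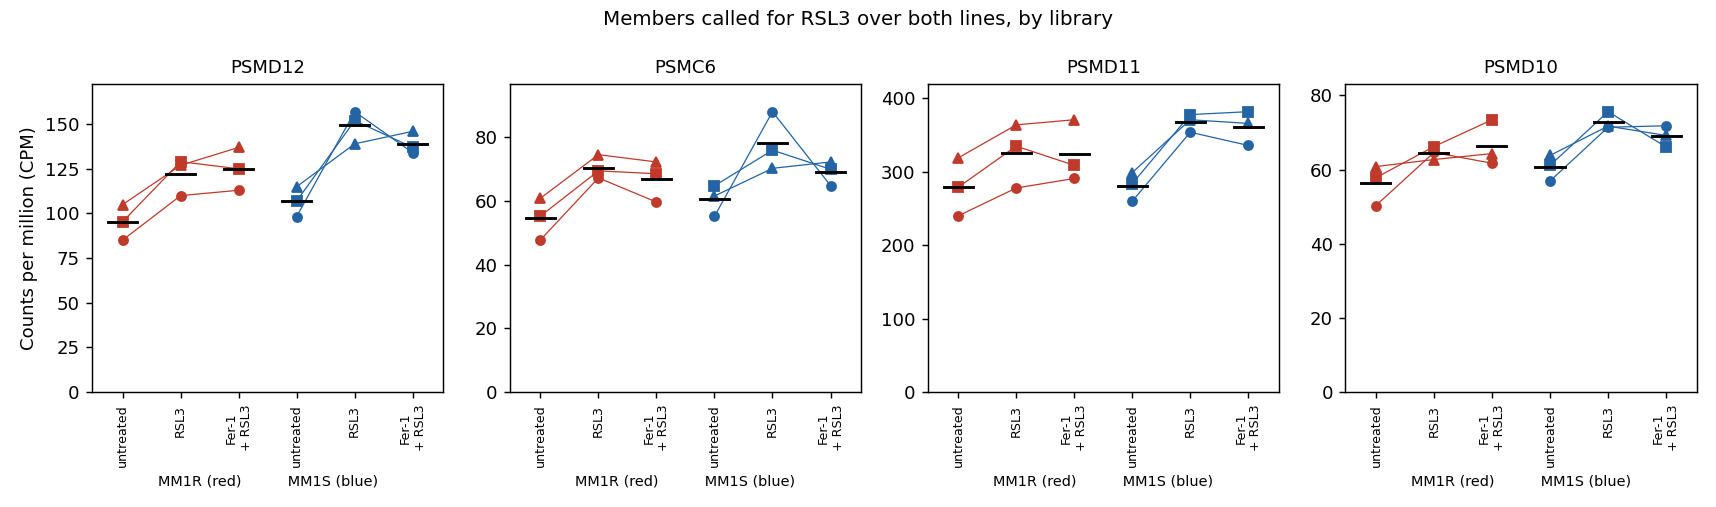
CPM of PSMD12, PSMC6, PSMD11 and PSMD10 (y axes from 0) in the 18 libraries of MM1R (red) and MM1S (blue) cells. Circles, squares and triangles are replicates 1, 2 and 3, lines join libraries of 1 passage and black bars are group means. In every passage the RSL3 library lies above the untreated library, and the libraries with Fer-1 and RSL3 also lie above it.

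In the hg19 (GRCh37) build to which the reads were aligned, PSMD12 lies at chr17:65334032-65362721 on the minus strand, PSMD11 at chr17:30771397-30810337 on the plus strand, PSMC6 at chr14:53173896-53195308 on the plus strand and PSMD10 at chrX:107327437-107334779 on the minus strand, in each case the whole annotated gene with its exons, introns and UTRs. Only PSMD11 overlaps other annotated genes, both on the opposite strand. The annotation names 3 pseudogenes of PSMD10 and 1 of PSMD12. Since these 4 genes rose together, the 250 bases before their start sites are shown from RefSeq (GRCh38.p14), at chr17:67366578-67366827 (minus strand) for PSMD12, chr17:32444260-32444509 (plus strand) for PSMD11, chr14:52706950-52707199 (plus strand) for PSMC6 and chrX:108091543-108091792 (minus strand) for PSMD10. They are written 5′ to 3′ along the gene, with capitals marking a match to the antioxidant response element motif TGACNNNGC on either strand. This motif is known as the binding sequence of NFE2L1 and NFE2L2, and NFE2L1 is known to raise proteasome genes when the proteasome is inhibited.
PSMD12: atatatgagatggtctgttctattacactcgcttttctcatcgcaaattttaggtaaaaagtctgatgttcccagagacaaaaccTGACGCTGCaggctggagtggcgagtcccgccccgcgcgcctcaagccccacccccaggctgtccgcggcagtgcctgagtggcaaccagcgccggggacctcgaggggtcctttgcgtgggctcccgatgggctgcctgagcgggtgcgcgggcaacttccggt
PSMC6: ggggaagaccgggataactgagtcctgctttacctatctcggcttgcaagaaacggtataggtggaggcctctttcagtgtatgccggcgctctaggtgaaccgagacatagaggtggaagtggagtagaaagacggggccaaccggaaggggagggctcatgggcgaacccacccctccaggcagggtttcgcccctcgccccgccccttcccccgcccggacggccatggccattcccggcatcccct
PSMD11: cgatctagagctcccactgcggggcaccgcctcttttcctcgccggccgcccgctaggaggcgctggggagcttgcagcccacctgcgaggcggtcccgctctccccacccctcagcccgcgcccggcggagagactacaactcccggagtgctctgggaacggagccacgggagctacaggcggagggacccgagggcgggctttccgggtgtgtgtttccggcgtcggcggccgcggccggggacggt
PSMD10: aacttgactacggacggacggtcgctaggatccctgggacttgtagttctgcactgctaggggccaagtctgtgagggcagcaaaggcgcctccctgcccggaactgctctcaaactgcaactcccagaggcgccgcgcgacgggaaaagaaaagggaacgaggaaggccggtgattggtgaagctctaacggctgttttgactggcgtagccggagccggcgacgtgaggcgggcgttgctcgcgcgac

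Of these 4 windows only that of PSMD12 held the motif, 165 bases before the start as TGACGCTGC. A promoter entry matched 35 of the 41 members, and 8 of these 35 (22.9%) held the motif, with 9 matches in all. The motif was present in 12.5% of the 10502 promoters of tested genes and in 11% of all 27305 promoters of this length. It can overlap the AP-1 motif TGACTCA, and none of the 9 matches contained those letters. The other members with a match were PSMD3, PSMD5, PSMD9, PSME2, PSME4, PSMG1 and PSMG2. Of these 7, PSMG1 was called lower for RSL3 over both lines with passage as a block (FDR 0.00683) and the others in neither fit. Such a match is a description of the letters and not of binding.

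By class, edgeR called no alpha subunit without the passage block, and the alpha genes ranged from -0.01 for PSMA4 to 0.23 ± 0.08 for PSMA1 (FDR 0.0655, 0.0446 with DESeq2 and 0.00663 with passage as a block), both structural ring subunits, with a median of 0.12. The 6 beta subunits were all above 0, with a median of 0.20 and a range from 0.06 for PSMB5 to 0.24 for PSMB7, and none was called although 3 had an unadjusted p under 0.05. The medians of the base ATPases and the non-ATPase subunits were 0.13 and 0.17, and their smallest values were 0.02 for PSMC5 (Rpt6) and -0.01 for PSMD1 (Rpn2), the scaffold of the base. The activators and the inhibitor had a median of -0.04, with -0.15 ± 0.11 for PSME3, the nuclear activator PA28 gamma, and 0.62 ± 0.31 (FDR 0.182) for PSME2, whose level was at most 1.12 CPM. The assembly chaperones had a median of -0.02, from -0.25 ± 0.16 (FDR 0.322) for PSMG1, which helps to build the alpha ring, to PSMD10. Thus the medians of the core and cap classes were above 0 and those of the activators and the chaperones near 0.

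Libraries of the same passage were then set against each other. The median log2 ratio of the members, RSL3 over untreated, was 0.16, 0.14 and -0.06 in passages 4, 6 and 7 of MM1R, and 0.23, 0.17 and 0.15 in passages 16, 22 and 23 of MM1S. In 5 of 6 passages 33 to 36 of the 41 members were higher after RSL3, whereas in MM1R passage 7 only 15 were higher and 26 were lower. The untreated library of that passage had the largest share of member counts among the untreated libraries, 0.772%, against 0.582% and 0.662% in the other MM1R passages and 0.662% to 0.717% in MM1S. HSPA6 stood at 1390 CPM in its RSL3 library and at 176 and 92.4 CPM in passages 4 and 6, while the MM1S passage with the highest HSPA6 level had the largest member median. In that MM1S passage, 16, the members' share of counts was lower after RSL3 (0.641%) than before (0.662%). With library totals in place of TMM factors, its member median was -0.04 and 17 members were higher, while the median of all genes was -0.28. The direction of the members at passage 16 therefore turned with the scaling, and their position above the median gene did not. In the other passages the total-count medians were 0.13, 0.11 and -0.12 in MM1R and 0.16 and 0.12 in MM1S. The part of these values in the result was not tested.

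**Figure D2:**
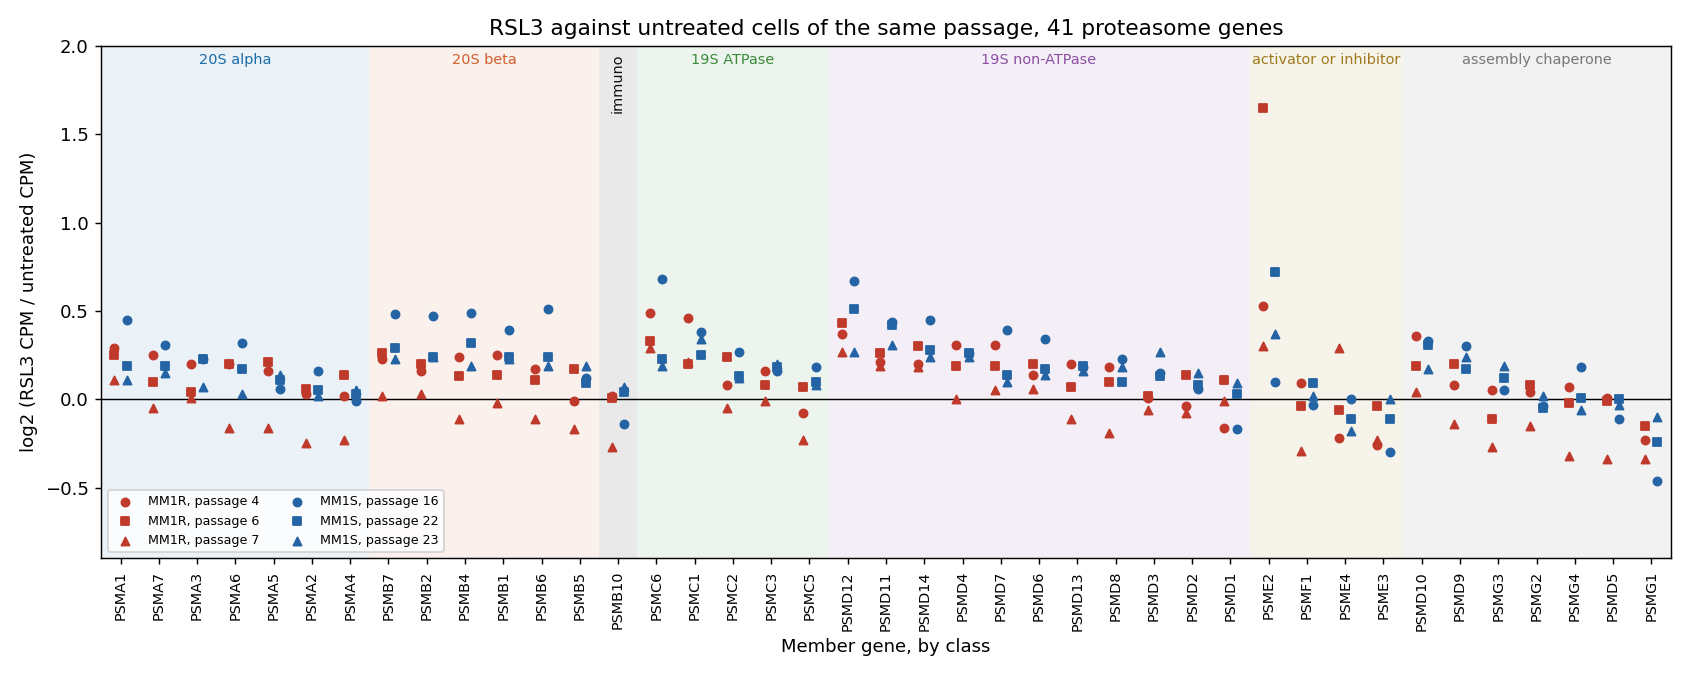
Log2 ratio of CPM, RSL3 over untreated cells of the same passage (y axis), for the 41 members grouped by class (x axis, ordered within a class by mean ratio). Red and blue symbols are the passages of MM1R and MM1S. Most 20S and 19S genes lie above 0 in 5 passages, and the red triangles (MM1R passage 7) lie lowest in most classes.

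On the TMM scale, 14 of the 41 members (34.1%) were in all 6 passages higher after RSL3, compared with 13.4% of all tested genes, and 2 members (4.88%), PSME3 and PSMG1, were lower, compared with 14.8%. The 14 were PSMA1 and PSMA3, PSMB2 and PSMB7, PSMC1 and PSMC6, the 6 non-ATPase subunits PSMD4, PSMD6, PSMD7, PSMD11, PSMD12 and PSMD14, and PSMD10 and PSME2. Among them are PSMD4, a ubiquitin receptor of the cap, and PSMD14, the enzyme that removes ubiquitin chains from substrates. With the passage as a block in the model, 17 members (41.5%) were called, 15 higher and 2 lower (PSMG1 at FDR 0.00683 and PSME3 at FDR 0.0434), against 30.4% of all genes. In this fit 5 members (12.2%) were called in MM1R cells, all higher, against 13.1% of all genes, and 13 (31.7%) in MM1S cells, all higher, against 13.3%. The share of members thus lay above that of all genes over both lines and in MM1S, and near it in MM1R. The blocked FDR over both lines was 0.000565 for PSMD11, 0.00143 for PSMD14, 0.00149 for PSMC1, 0.00774 for PSMB7, 0.0215 for PSMB1, 0.0244 for PSMB4 and 0.0478 for PSMB6. The count of calls therefore depended on whether the passages were treated as pairs, while the log2 fold changes hardly moved (0.24 without and 0.25 with the block for PSMB7).

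The difference of the RSL3 response between the lines was tested next. The log2 fold change in MM1R minus that in MM1S was below 0 for 37 of 41 members, with a median of -0.11 and a range without PSME2 from -0.27 for PSMB6 to 0.10. Of all tested genes 48.4% were above 0, with a median of -0.01. No member and 0.0% of all genes were called for this difference by edgeR, and no member had an unadjusted p under 0.05, also with DESeq2. With total-count scaling the median of this difference was -0.05 for the members, with 10 above 0, and 0.05 for all genes. On the TMM scale the member median became 0.03 when untreated replicate 3 of MM1R was left out. The beta subunits had medians of 0.31 in MM1S and 0.09 in MM1R, a difference that was not called for any of the 6 genes. Without untreated replicate 3 of MM1R the median of all members in MM1R was 0.21, and without untreated replicate 1 it was -0.07, against 0.05 with all libraries, so the sign of the MM1R median rested on single libraries.

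The catalytic beta subunits were examined by name. PSMB5 carries the chymotrypsin-like site, PSMB6 the caspase-like site and PSMB7 the trypsin-like site, and PSMB10 replaces PSMB7 in the immunoproteasome. PSMB5 measured 59.7, 58.7 and 75.1 CPM in untreated MM1R cells and 59.1, 66.0 and 66.9 after RSL3. The values in MM1S were 50.6, 55.5 and 53.0 against 54.9, 59.1 and 60.6. The groups overlapped in both lines, and the log2 fold change over both lines was 0.06 ± 0.08 (FDR 0.681). On the same strand, 3 other annotated genes overlap PSMB5, so the counts of this locus are uncertain to that extent.

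PSMB6 measured 153, 182 and 253 CPM in untreated MM1R cells and 173, 197 and 234 after RSL3. MM1S cells had 154, 170 and 177 against 219, 200 and 201. The MM1S groups did not overlap and the MM1R groups did, and the log2 fold change over both lines was 0.17 ± 0.11 (FDR 0.333).

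PSMB7 measured 76.4, 90.4 and 122 CPM in untreated MM1R cells against 89.8, 108 and 124 after RSL3. MM1S cells had 76.0, 81.2 and 89.4 against 106, 99.1 and 105. The arrangement was that of PSMB6, with a log2 fold change over both lines of 0.24 ± 0.12 (FDR 0.165, and 0.00774 with the passage as a block).

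PSMB10 was the only catalytic immunoproteasome subunit that reached the count, and PSMB8 and PSMB9 are not read for the reason given above. It measured 108, 130 and 137 CPM in untreated MM1R cells, 109, 132 and 113 after RSL3 and 106, 98.6 and 99.7 after Fer-1 and RSL3. In MM1S cells it measured 137, 118 and 118, then 124, 121 and 124, and then 115, 136 and 112. The log2 fold change for RSL3 over both lines was -0.05 ± 0.08 (FDR 0.738). All MM1R libraries with Fer-1 and RSL3 lay below all untreated MM1R libraries, and this difference of -0.30 ± 0.11 had an FDR of 0.103 with edgeR and of 0.0493 with DESeq2. Without the library that carried the MM1S signal it was -0.28 ± 0.13 (edgeR FDR 0.248). One other annotated gene, without a symbol, overlaps PSMB10 on the same strand, so the counts of this locus are uncertain to that extent. Per kb of transcript, the ratio of PSMB10 to PSMB7 was 1.33 ± 0.182 (SD, n = 3) in untreated MM1R cells, 1.12 ± 0.177 after RSL3 and 1.03 ± 0.177 after Fer-1 and RSL3, where the 2 libraries without the MM1S signal had 0.845 and 1.20. In MM1S cells it was 1.54 ± 0.248, 1.20 ± 0.0287 and 1.27 ± 0.166. It was lower after RSL3 than without in each of the 6 passages, and no test was run on it.

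**Figure D3:**
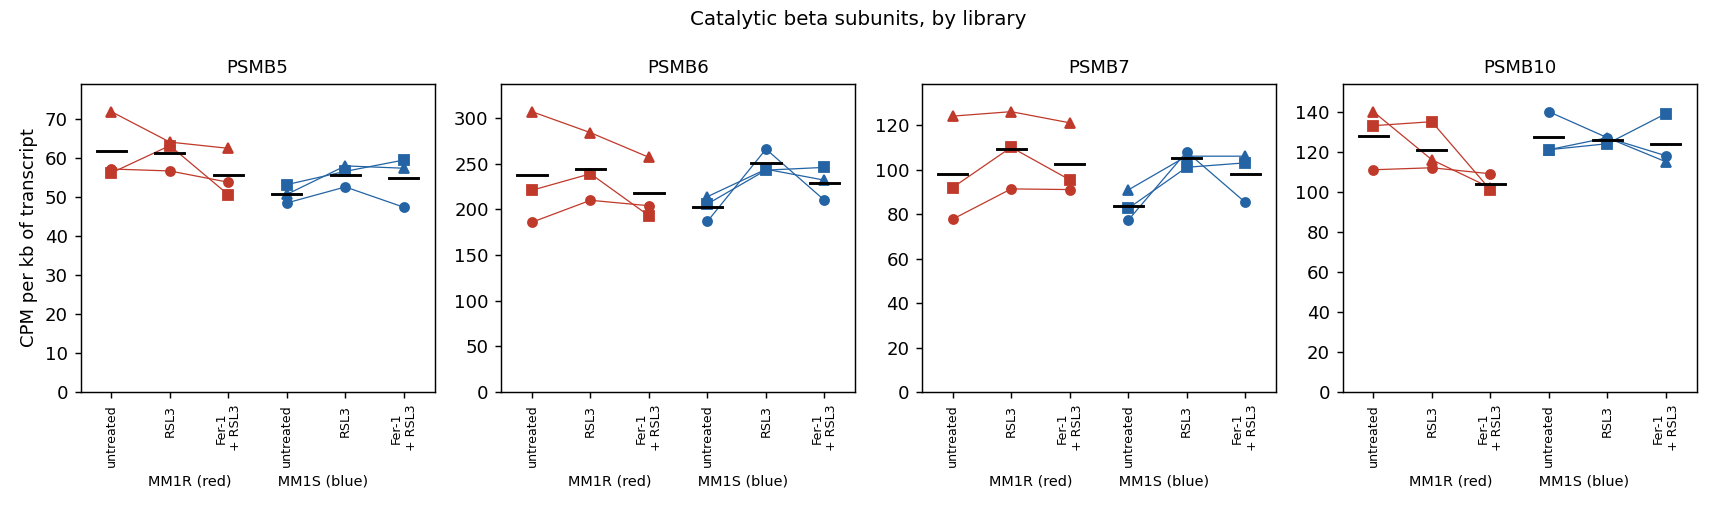
CPM per kb of transcript (y axes from 0) of PSMB5, PSMB6, PSMB7 and PSMB10 in the 18 libraries. Circles, squares and triangles are replicates 1, 2 and 3, lines join libraries of 1 passage and black bars are group means. PSMB6 and PSMB7 are higher in all 3 RSL3 libraries of MM1S cells than in the untreated ones, and PSMB10 is lowest in MM1R cells given Fer-1 and RSL3.

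Fer-1 pre-treatment was compared with RSL3 alone to see whether it altered the members' levels. No member was called by edgeR in MM1R (0.0% of all genes), MM1S (0.0%) or both lines (0.119%), and at an unadjusted p under 0.05 there were 1, 0 and 1 members, in both cases PSMD9, an assembly chaperone of the base. DESeq2 and the fit with the passage as a block also called 0 members. The median log2 fold changes were -0.05, -0.08 and -0.05, with 36 of 41 members below 0 over both lines. With total-count scaling the medians were 0.03, 0.00 and 0.03, while those of all genes were 0.08, 0.07 and 0.08, so the sign of the member medians turned with the scaling. Without the MM1R library that carried the MM1S signal, 0 members were called, the medians were -0.06 in MM1R and -0.05 over both lines, and PSMD9 over both lines was the only member with an unadjusted p under 0.05. PSMD9 had the largest difference, -0.21 ± 0.08 (FDR 0.296). The 4 genes that rose with RSL3 had log2 fold changes of -0.03 ± 0.08 for PSMD12, -0.13 ± 0.08 for PSMC6, -0.02 ± 0.09 for PSMD11 and -0.02 ± 0.07 for PSMD10. In all 6 passages, 5 members (12.2%) were lower with Fer-1 than with RSL3 alone, compared with 6.51% of all genes, namely PSMA1, PSMA2, PSMB4, PSMD13 and PSMD9, and 0 were higher, compared with 8.0%. In the 5 passages other than passage 6 of MM1R, these 5 and PSMD5 were lower (14.6%), compared with 10.2% of all genes.

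By passage, the member medians for this comparison were -0.02, -0.13 and -0.02 in MM1R and -0.15, 0.00 and -0.03 in MM1S. The lowest MM1R value came from passage 6, whose Fer-1 library carried the MM1S signal, and there the beta subunits had a median of -0.28 and PSMB10 a ratio of -0.42. Between the untreated lines, MM1R minus MM1S, the beta median was 0.19 and PSMB10 was at 0.01. In the MM1R fit PSMB10 was at -0.22 ± 0.11 with that library and at -0.20 ± 0.13 without it. The part of the MM1S signal in these values was not tested. The lowest MM1S value came from passage 16, whose RSL3 library had the strongest heat shock response, and there the beta median was -0.34 after 0.48 for RSL3 over untreated.

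**Figure D4:**
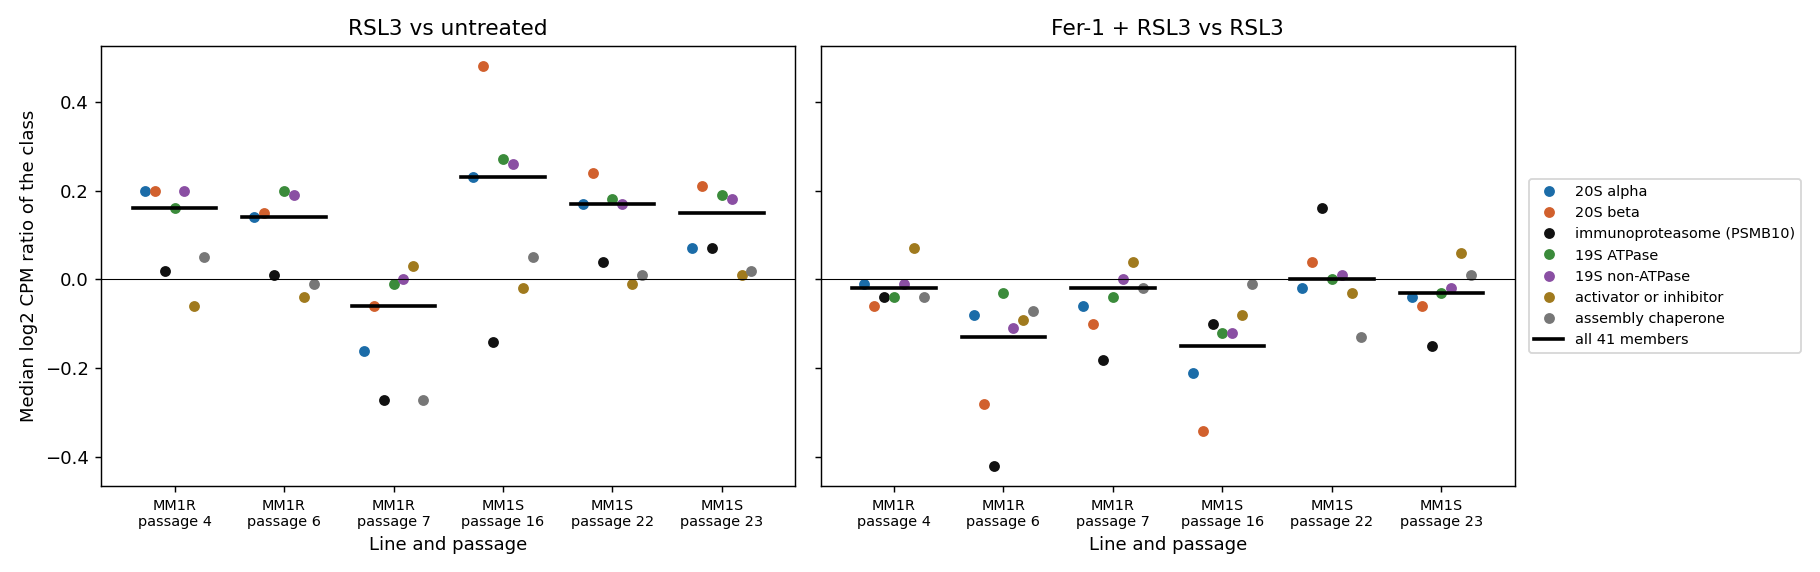
Median log2 CPM ratio of each class (coloured points) and of all 41 members (black bars) by line and passage, for RSL3 over untreated cells (left) and for Fer-1 and RSL3 over RSL3 alone (right). The member median is above 0 in 5 of 6 passages on the left, and on the right the beta subunits are low in MM1R passage 6 (-0.28) and lowest in MM1S passage 16 (-0.34).

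Cells given Fer-1 and RSL3 were also compared with untreated cells, which are the same control libraries as above, so these results are not independent of the RSL3 comparison. Over both lines 4 members (9.76%) were called, all higher, against 19% of all genes. They were PSMD12 with 0.39 ± 0.08 (FDR 0.002), PSMD11 with 0.29 ± 0.09 (FDR 0.0325), PSMD10 with 0.21 ± 0.07 (FDR 0.0349) and PSMC6 with 0.24 ± 0.08 (FDR 0.0497). In MM1R cells PSMD12 was called (0.39 ± 0.11, FDR 0.0306) against 9.22% of all genes, and in MM1S cells 0 members were called by edgeR against 4.61%. In MM1S, 2 members had an unadjusted p under 0.05 and DESeq2 called 1, PSMD12, whose edgeR FDR was 0.0529. The median log2 fold changes of the members were -0.02 in MM1R, 0.12 in MM1S and 0.04 over both lines. Those of all genes were 0.02, 0.00 and 0.00. In MM1R 18 members were higher and 23 lower, in MM1S 31 and 10, and over both lines 25 and 16. Without replicate 2 of the MM1R group, the library with the MM1S signal, only PSMD12 and PSMD11 were called over both lines, PSMC6 had an FDR of 0.0971 and PSMD10 of 0.101, and the MM1R call of PSMD12 was lost (FDR 0.0873). The member medians without that library were -0.03 in MM1R and 0.04 over both lines. The MM1R call of PSMD12 was also lost without untreated MM1R replicate 1 (0.105) or 2 (0.0968) or replicate 3 of the treated group (0.125). With 1 library left out, PSMD12 kept its call over both lines in all 18 fits, PSMC6 in 3 (without untreated MM1R replicate 3, MM1R Fer-1 and RSL3 replicate 1 or MM1S RSL3 replicate 1), and PSMD11 and PSMD10 in 11 each, both being lost without replicate 1 or 2 of either untreated group. With the passage as a block, 4 members were called in MM1R (22.2% of all genes), 5 in MM1S (14.7%), and 11 over both lines (33.3%), of which 9 were higher and 2 lower.

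In untreated cells, the lines differed in 2 members (4.88%), both assembly chaperones of the alpha ring and both higher in MM1R, against 10.5% of all genes. The MM1R libraries were of passages 4, 6 and 7 and the MM1S libraries of passages 16, 22 and 23. In every comparison between the lines, line and passage number therefore cannot be told apart. PSMG3 measured 29.0, 34.4 and 36.4 CPM in untreated MM1R cells against 24.1, 23.5 and 21.3 in MM1S. PSMG4 measured 18, 19.5 and 26.5 CPM against 12.6, 13.9 and 15.0. The groups did not overlap, and the log2 differences were 0.53 ± 0.13 for PSMG3 (1.45-fold, FDR 0.0164) and 0.62 ± 0.16 for PSMG4 (1.54-fold, FDR 0.0182). The call of PSMG3 was lost without replicate 2 or 3 of either untreated group, with a largest FDR of 0.0817, and that of PSMG4 without untreated MM1R replicate 3 (0.43, FDR 0.111) or untreated MM1S replicate 1 or 2 (0.0601 and 0.0651).

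After RSL3, PSMG3 measured 30.1, 31.9 and 30.1 CPM in MM1R and 25, 25.5 and 24.2 in MM1S, and PSMG4 measured 18.8, 19.2 and 21.2 against 14.3, 14 and 14.4. The libraries of the lines thus did not overlap under RSL3 in either gene, and the difference between the lines under RSL3 was not tested. Both genes were picked by their difference in untreated cells. For PSMG3 the RSL3 response in MM1R minus that in MM1S was -0.23, so its difference between the lines was smaller under RSL3. This change was not called. After Fer-1 and RSL3, PSMG3 measured 35.2, 23 and 31.5 CPM in MM1R, and PSMG4 measured 18.3, 14.3 and 19.2. The low value of each gene came from the library with the MM1S signal, and it lay among the MM1S values of that treatment for PSMG4 (11 to 14.8) and just below those for PSMG3 (23.3 to 24.8). The 13 genes that mark MM1S stood at a median of only 49.3% of their MM1S level in this library. The part of that signal in the values of PSMG3 and PSMG4 was not tested. Both genes overlap others on the opposite strand, PSMG3 with PSMG3-AS1 and PSMG4 with SLC22A23 and TUBB2B, and the use of strand in counting is not given in the sources used here. The other members ranged from -0.25 for PSME4 to 0.29 for PSMD9, leaving aside PSME2 with -0.69 ± 0.45, and PSMB5 was 0.28 ± 0.12 higher in MM1R (FDR 0.151). All 6 beta subunits were above 0, with a median of 0.19, while the median of all members was -0.01.

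**Figure D5:**
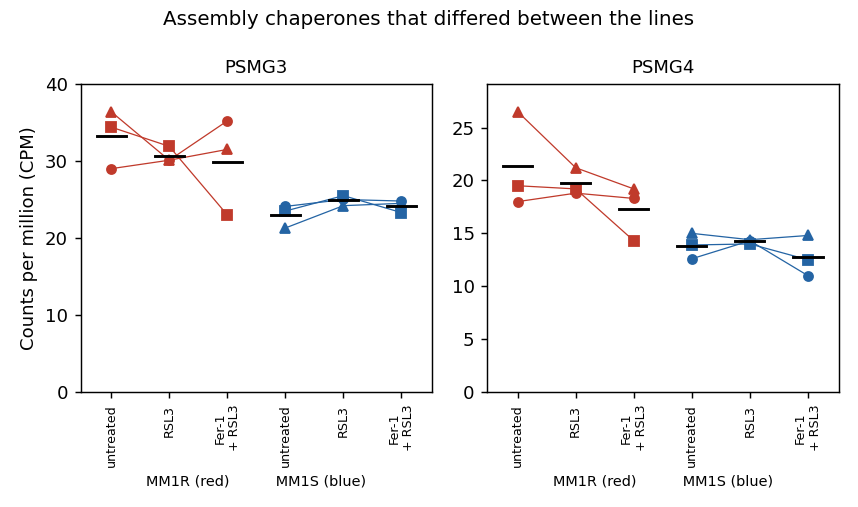
CPM of the assembly chaperone genes PSMG3 and PSMG4 (y axes from 0) in the 18 libraries. Circles, squares and triangles are replicates 1, 2 and 3, lines join libraries of 1 passage and black bars are group means. The MM1R libraries lie above the MM1S libraries in untreated and RSL3-treated cells. The red square of the Fer-1 and RSL3 group, replicate 2, lies among the MM1S values of that treatment for PSMG4 and just below them for PSMG3.

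Genes around the proteasome were counted from lists set beside the members. For RSL3 over both lines, where 15.5% of all tested genes were called, 4 of 17 proteasome-associated factors rose and 0 fell, with a list median of 0.13. They were ZFAND5 with 1.21 ± 0.16 (FDR 0.000202) and ZFAND2A with 2.56 ± 0.44 (FDR 0.00122), stress-induced proteins that bind the 19S cap, UBQLN1 with 0.41 ± 0.09 (FDR 0.00468), a shuttle for ubiquitinated proteins, and TXNL1 with 0.32 ± 0.09 (FDR 0.0304), a thioredoxin of the cap. Of 12 genes of the NFE2L1 axis, 4 rose and 1 fell. NFE2L1 itself rose by 0.68 ± 0.11 (FDR 0.000639), NFE2L2 by 0.55 ± 0.09 (FDR 0.00102), MAFF, a small partner of both factors, by 1.69 ± 0.38 (FDR 0.00671), and BACH1, a repressor at the same elements, by 1.47 ± 0.19 (FDR 0.000159), while NFE2L3 was at -0.69 ± 0.10 (FDR 0.000325). As a reference for the treatment, all 5 listed RSL3 response genes rose, from 1.44 for SRXN1 to 9.59 for HSPA6. Of the 8 plasma cell markers 1 rose and 2 fell with RSL3, namely CD38 with 0.54, SDC1 with -0.45 and TNFRSF17 with -0.53. These called genes were picked by their FDR, so their range cannot be compared with that of all members, which without PSME2 ran from -0.25 to 0.42. The list medians were 0.13 for the associated factors, 0.22 for the NFE2L1 axis and 0.12 for p97 and ubiquitin genes. The median of the members was 0.12.

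Among genes for p97 and ubiquitin, UBB, a polyubiquitin gene, rose by 0.52 ± 0.13 (FDR 0.0123) and UBXN4, which recruits p97 at the endoplasmic reticulum, by 0.35 ± 0.07 (FDR 0.0051). Of 13 antigen presentation genes, which work downstream of the immunoproteasome, 10 could be tested, with a list median of 0.09, while TAP1, TAP2 and HLA-E had at most 2 counts. Between the untreated lines, where 10.5% of all tested genes were called, 0 of the 17 associated factors differed. Of the 12 p97 and ubiquitin genes 1 was called, UBA1, the main ubiquitin-activating enzyme, higher in MM1R by 0.69 ± 0.10 (FDR 0.000446). Of the 12 genes of the NFE2L1 axis 1 was called, SEL1L, a part of the endoplasmic reticulum degradation complex, lower in MM1R by -0.83 ± 0.17 (FDR 0.00582). In bulk RNA of a culture, a change in RNA per cell and a change in the mix of live and dying cells cannot be told apart.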

How the data were processed

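RNA sequencing was analysed for 18 libraries, 3 in each of 6 groups. The authors sequenced paired reads on the BGISEQ-500 platform, checked them with FastQC 0.11.5, aligned them to hg19 with STAR 2.7.3a and deposited raw read counts for 43735 rows. The counting tool, the annotation and the use of strand are not given in the sources used here. A second deposited table, the same counts divided by a size factor per library, was not used. All columns of the count table were assigned to samples by their labels, and 0 were left out.

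Counts were analysed with R 4.3.3 and edgeR 4.0.16: filterByExpr with a minimum count of 10 kept 14281 genes, libraries were scaled by TMM, and a quasi-likelihood model of 6 group means over all 18 libraries (12 residual degrees of freedom) gave 2-sided tests, with Benjamini-Hochberg adjustment (FDR) over all tested genes and calls at an FDR under 0.05. The members and all gene lists were chosen with earlier results of these data known. Named members are PSMB5 to PSMB10, every member called in a comparison, and the members with the largest and smallest RSL3 response over both lines in each class. Other members are named where a count or a library value singles them out, after their values were seen. Genes of the neighbouring lists were named where called, up to 5 a list, and some results of these lists are not reported here.

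The labels give the passage of each culture, and replicate numbers stand for passages. After subtraction of the group means, libraries of 1 passage correlated across genes with a median r of 0.25 in MM1R (0.0338 to 0.516, 9 pairs) and 0.416 in MM1S (0.216 to 0.681, 9 pairs). A model with passage as a block (8 residual degrees of freedom) was an alternative, as were DESeq2 1.42.0, RLE and upper-quartile scaling, no filter, a minimum count of 50, only the groups compared, and leaving out each library. Total-count scaling, without TMM factors, was added after the data were seen. P-values measure the spread between passages of 1 culture of each line. All replicate libraries of a group differed by more than sampling noise. The steps were tested on simulated data. Gene positions, overlaps and transcript lengths came from a GENCODE annotation of GRCh37 and promoter sequences from RefSeq.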

Additional observations from a re-analysis of the deposited data

How the results depend on the processing

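With the replicate block (passage within line), the members called for RSL3 numbered 5 in MM1R, 13 in MM1S and 17 over both lines, in place of 0, 1 and 4, and for Fer-1 and RSL3 against untreated 4, 5 and 11, in place of 1, 0 and 4, while the counts for the interaction and for Fer-1 and RSL3 against RSL3 stayed at 0. No such fit was made for the untreated lines, since passages are nested in lines. DESeq2 called 1, 2 and 5 members for RSL3 in MM1R, MM1S and both lines (PSMA1 being added to the 4), and 2 and 1 for Fer-1 and RSL3 against untreated. Upper-quartile scaling called 1 for RSL3 in MM1R and 1 for Fer-1 and RSL3 against untreated in MM1S. The stricter filter called 1 and 2 for RSL3 in MM1R and MM1S and 1 for Fer-1 and RSL3 against untreated in MM1S. Without a filter, 2 members were called for RSL3 over both lines, and 0 in MM1R and 1 over both lines for Fer-1 and RSL3 against untreated. With only the groups compared, 0 were called for RSL3 in MM1S, and 0 and 2 for Fer-1 and RSL3 against untreated in MM1R and MM1S. The causes were not tested. All medians moved by less than their spread between passages under these alternatives. Total-count scaling, added after the data were seen, called 2 members for RSL3 over both lines and 1 for Fer-1 and RSL3 against untreated in MM1S. It moved the RSL3 median in MM1S to 0.08, where all genes had -0.10, and the medians of Fer-1 and RSL3 against RSL3 to 0.03 in MM1R, 0.00 in MM1S and 0.03 over both lines.

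Leaving out 1 library at a time, the number called for RSL3 was 0 to 2 in MM1R, 0 to 1 in MM1S and 2 to 11 over both lines (11 without untreated MM1R replicate 3, and 2 without untreated replicate 1 or 2 of either line or RSL3 replicate 2 of either line), for Fer-1 and RSL3 against untreated 0 to 1 in each line and 1 to 7 over both lines (7 without untreated MM1R replicate 3, 1 without untreated replicate 1 or 2 of either line or MM1S Fer-1 and RSL3 replicate 3, and 2 without MM1R Fer-1 and RSL3 replicate 2 or 3 or MM1S Fer-1 and RSL3 replicate 1 or 2), and for the untreated lines 0 to 2 (0 without MM1R replicate 3 or MM1S replicate 2). The medians ranged from -0.07 to 0.21 for RSL3 in MM1R, -0.22 to 0.03 for the interaction, -0.15 to 0.02 for Fer-1 and RSL3 against RSL3 in MM1R, and -0.14 to 0.12 in MM1R and 0.08 to 0.16 in MM1S for Fer-1 and RSL3 against untreated. No named fold change reversed. PSMD12 and PSMC6 kept their RSL3 calls over both lines under every alternative.

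A missing call does not show a stable level. The replicates were passages of 1 culture per line, and reads shared with pseudogenes, overlapping genes or repeated rows cannot be traced from a count table.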
